A study of Homo sapiens with 24 samples.

Results

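*ROR2* KD cells are R-2A (HiPS-RIKEN-2A) hiPSCs, a human induced pluripotent stem cell line, that carry a lentiviral shRNA against *ROR2*. The comparison sets the 3 *ROR2* KD arrays of day 21 against the 3 of day 14, which were chosen by their labels and make up 6 of the 24 arrays of the series. Each group has 3 biological replicates, and the other groups are *ROR2* KD cells of days 0 and 7 and R-2A cells with a control shRNA at all 4 time points, days 0, 7, 14 and 21. All cells after day 0 were kept as a monolayer in a SMAD-inhibiting neural induction medium and passaged every 7 days. The cells went through puromycin selection, and nothing in the labels says whether replicates came from separate transductions. P-values therefore measure the spread between the replicates, and the knockdown and any other difference of the 2 cell lines cannot be told apart. The text of the study does not state which shRNA the array experiment used.

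Neural induction with SMAD inhibitors turns pluripotent cells into neural stem/progenitor cells (NS/PCs), which divide before they leave the cell cycle and become neurons. In the embryonic forebrain, progenitors of the ganglionic eminences express DLX family factors and give rise to GABAergic neurons, among them the interneurons that release somatostatin, whereas dorsal progenitors give rise to glutamatergic neurons. ROR2 is a receptor tyrosine kinase-like protein that binds WNT5A and signals without beta-catenin.

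In *ROR2* KD cells, 14 of 23 genes of the neuronal cytoskeleton and the neuropeptide gene *SST* were higher on day 21 than on day 14, and 29 of 31 mitosis genes were lower. Lower were also 19 of 45 matrix genes (5 higher), 8 of 24 dorsal forebrain genes (2 higher) and *LIN28A*. The summed linear signal of the 45 matrix genes was nevertheless higher on day 21, and that of the 24 dorsal forebrain genes did not fall. Of 33616 genes, 1079 were higher (3.21%) and 1932 were lower (5.75%) in limma, where a call needed more than a 2-fold change and a Benjamini-Hochberg adjusted p under 0.05. Fold changes above 4 were seen for 304 of the higher and 287 of the lower genes. Counted over the 37295 transcript clusters with a symbol, 3.18% were higher and 5.67% lower. The values are log2 signals, changes are day 21 minus day 14 with the standard error from limma, and the arrays carry no read depth, so that the number of arrays limits the precision. On each array, the 95th percentile of 23 background probe sets was taken as the background level, which lay between 7.76 and 8.07 on day 14 and between 7.30 and 8.32 on day 21. On all 6 arrays, 320 of the higher and 441 of the lower genes lay under that level, and over the 10159 genes above it on at least 3 arrays, 6.22% were higher and 13.4% were lower. Where all 3 arrays of 1 day alone lay under the level, the measured fold is a lower bound against the mean background level of that day, the fitted change beside it is no measured size, and no bound is given where it would be under 1. Arrays of a group correlated at 0.963 to 0.987 across transcript clusters. Array medians were 4.26 to 4.28 on day 14 and 4.35 to 4.50 on day 21. With each array centred on its median, the median change over all genes moved from -0.009 to -0.159, and the split of clusters with a symbol moved from 1185 higher and 2113 lower to 923 higher and 2884 lower.

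**Figure D1:**
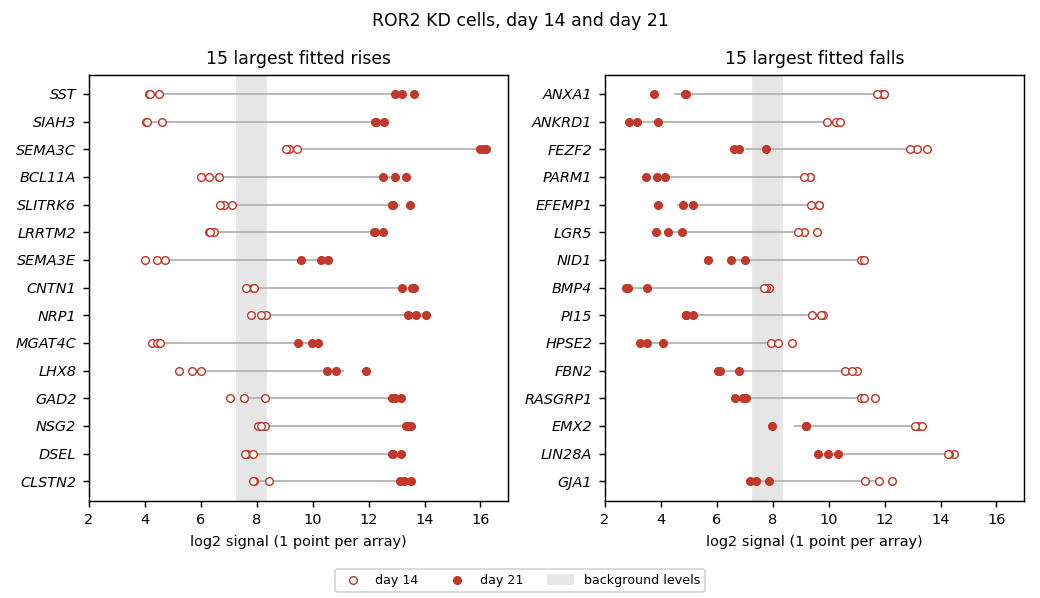
Log2 signal (horizontal axis) of the 15 genes with the largest fitted rise and the 15 with the largest fitted fall in *ROR2* KD cells whose arrays of both days do not overlap, 1 point per array, open for day 14 and filled for day 21. Grey lines join the means of 3 arrays and the grey band spans the background levels of the 6 arrays. *SST* moved from 4.15 to 4.49 on day 14 to 12.93 to 13.62 on day 21, and *ANXA1* from 11.74 to 11.97 down to 3.76 to 4.91.

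*SST* had the largest fitted rise, although from under background, and encodes somatostatin, the peptide of a class of cortical and striatal interneurons. The signal was 4.49, 4.15 and 4.19 on the day 14 arrays and 13.62, 13.19 and 12.93 on those of day 21. All 3 arrays of day 14 lay under the background level and all 3 of day 21 far above it, with no overlap. The fitted change was 8.97 (standard error 0.23, adjusted p = 4.7e-17), and the rise was at least 41.6-fold. *SST* had been as low on days 0 and 7, at means of 4.02 and 3.33. In RNA from a whole culture, more cells of a type and more RNA per cell cannot be told apart. The 120 bases before the RefSeq start of *SST* (GRCh38.p14, chr3:187670395-187670514, minus strand) are shown because the promoter of the leading gene holds the cyclic AMP response element TGACGTCA, in capitals, which reads the same on both strands and begins 47 bases before the start.
*SST* promoter: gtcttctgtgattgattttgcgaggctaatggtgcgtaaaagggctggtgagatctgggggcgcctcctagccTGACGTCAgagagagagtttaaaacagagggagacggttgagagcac
The same 8 letters stand in the 250 bases before the start of 482 of 27305 genes (1.77%). Of the 12 matched genes for GABA synthesis, interneuron peptides and calcium binders, 1 has them, which is *SST* itself. Among lists whose members fell, they stand before 4 of 26 mitosis genes (15.4%) and 2 of 27 DNA replication genes (7.41%). The match is a description of the letters only.

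Of the 15 measured genes for GABA synthesis, interneuron peptides and calcium binders, 7 rose and 0 fell, with a median change of 0.72 against -0.01 over all genes, and with a filter on dim clusters 4 rose. *GAD2*, which encodes the GABA-synthesizing enzyme GAD65, measured 7.56, 7.03 and 8.29 on day 14 and 13.15, 12.94 and 12.82 on day 21. The days did not overlap, and 1 of the day 14 arrays lay above background (change 5.34, standard error 0.32, adjusted p = 1.05e-10). *SLC32A1*, the vesicular GABA transporter, rose from 5.83 ± 0.16 (SD, n = 3) to 9.48 ± 0.31, at least 3.06-fold. The calcium binder *CALB2* rose from 3.11 ± 0.05 to 7.28 ± 0.46 and the tachykinin gene *TAC1* from 4.54 ± 0.21 to 7.62 ± 0.71, each above background on 2 arrays of day 21 and with no bound above 1. *RELN*, whose product is the extracellular protein reelin, also rose (2.33), but under the background level on all 6 arrays. *GAD1*, the gene of GAD67, was 8.96, 9.13 and 9.72 on day 14 and 10.22, 9.84 and 9.90 on day 21. Its arrays did not overlap, yet the change of 0.72 (standard error 0.35, adjusted p = 0.255) did not pass the test. Over all genes, 14.8% had higher and 20.5% lower arrays on day 21 with no overlap. *NPY*, *VIP*, *CCK*, *PENK*, *CALB1*, *PVALB* and *CRH* lay under background on all 6 arrays.

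Transcription factors of the GABAergic lineage rose as well, 9 of 19 measured with 0 lower and a median change of 0.89. *LHX8*, a LIM homeodomain factor of the medial ganglionic eminence, was 5.68, 5.23 and 5.99 on day 14 and 11.92, 10.53 and 10.83 on day 21. The groups were far apart, and the rise was at least 9.36-fold (change 5.46, standard error 0.37, adjusted p = 7.52e-10). *DLX6* rose by 4.92, at least 20.6-fold, from under background, whereas *DLX1*, *DLX2* and *DLX5* were above background on all arrays of day 14. *DLX1* gave 12.77, 12.86 and 12.62 on day 14 and 15.48, 15.53 and 15.13 on day 21, and rose by 2.63 (standard error 0.28, adjusted p = 9.54e-07). *DLX5* rose by 1.72, and *DLX2* by 2.17. The antisense transcript *DLX6-AS1* was at 14.32 ± 0.14 and 15.11 ± 0.41 and did not pass the test (0.78, adjusted p = 0.182). *PROX1*, a homeobox factor of interneurons of the caudal eminence, rose by 2.70, and *MAF*, *SP8* and *LHX6* completed the rises with 1.48, 1.23 and 1.66, *LHX6* under background on all 6 arrays. The call of *SP8* was lost without replicate 3 of day 14. *GSX2*, which in mouse specifies progenitors of the lateral eminence, was at 9.98 ± 0.32 and 10.60 ± 0.28 without a call. *NKX2-1*, the factor that marks the medial eminence, lay under background on all 6 arrays, at 6.28 ± 0.10 and 7.14 ± 0.37 (0.86, adjusted p = 0.0455, a fold change of 1.82).

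**Figure D2:**
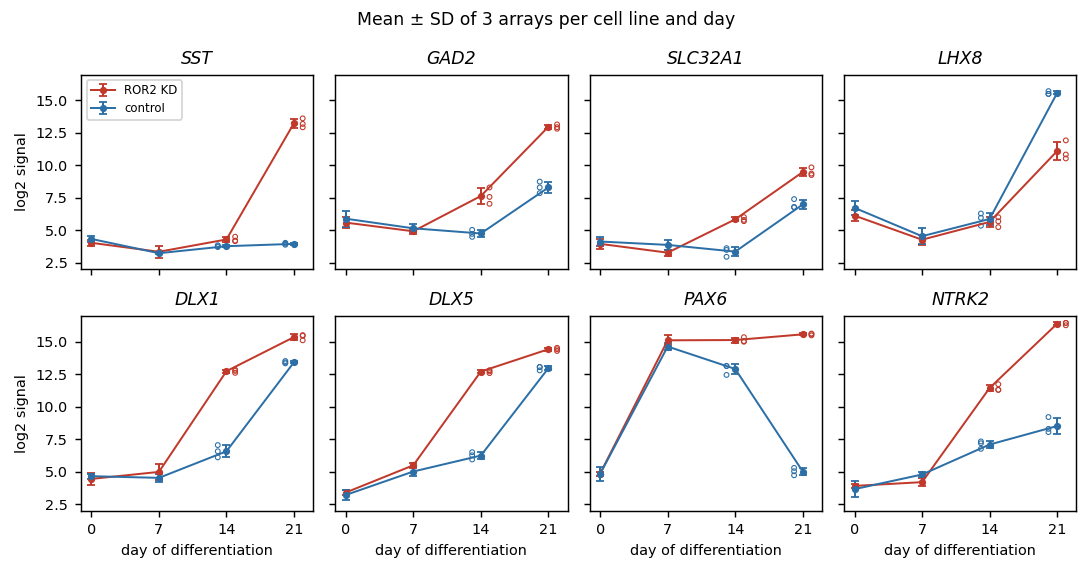
Log2 signal (vertical axis) by day of differentiation for 8 genes in *ROR2* KD (red) and control cells (blue), as the mean ± SD of 3 arrays, with single arrays of days 14 and 21 as open circles beside the mean. Between days 14 and 21, *SST* rose in *ROR2* KD cells (8.97) and not in control cells (0.18), *DLX5* rose in both (1.72 and 6.75), and *PAX6* stayed high in *ROR2* KD cells (15.15 and 15.59) with a change of -7.90 in control cells.

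Genes of the neuronal cytoskeleton and growth cone rose in 14 of 23 cases and fell in 0, with a median change of 1.11. The microtubule protein gene *MAPT* was 7.98, 7.93 and 8.23 on day 14 and 11.95, 12.30 and 11.98 on day 21. Its arrays were tight within each day and did not overlap, and the change was 4.03 (standard error 0.22, adjusted p = 3.28e-11). *GAP43*, a protein of growing axons, rose by 2.67, the stathmin *STMN4* by 2.63 and the RNA-binding protein *ELAVL3* by 2.40. *MAP2*, a dendritic microtubule protein, was above background on both days, at 15.94 ± 0.22 and 16.75 ± 0.19, and its fold change of 1.75 (adjusted p = 0.0099) was under the threshold of 2. *NSG2*, a neuron-specific endosomal protein, rose by 5.27 from 8.17 ± 0.13 to 13.44 ± 0.09. The zinc finger factor *BCL11A* rose by 6.62, at least 33.5-fold, and the ubiquitin ligase family gene *SIAH3* by 8.11, at least 22.4-fold. Neuronal splicing regulators rose in 9 of 19 cases, among them *CELF4* (3.79, at least 1.71-fold) and *KHDRBS3* (2.58). The 1 member that fell, *REST* (-1.20), is a repressor of neuronal genes, and its call was lost without replicate 2 of day 21.

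Synaptic genes were mostly higher where they were called. Of the genes for synaptic vesicles, release and scaffold, 16 of 31 rose and 2 fell, with a median of 1.12, and of those for synaptic adhesion, 15 of 32 rose and 3 fell, with a median of 0.99. *RAB3A*, a GTPase on synaptic vesicles, rose by 2.79, *PCLO*, the active zone scaffold piccolo, by 2.74, and *SNAP91*, a clathrin adaptor of the vesicle cycle, by 2.45. *SLC17A6*, the vesicular glutamate transporter VGLUT2, went the other way, from 9.03, 9.40 and 9.44 on day 14 to 6.70, 6.55 and 7.10 on day 21. All arrays of day 21 lay under those of day 14 and under background, a fall of at least 2.94-fold (-2.50, adjusted p = 3.38e-06). *SLC17A7*, or VGLUT1, lay under background on all 6 arrays and was not called. Among adhesion genes, *SLITRK6* had 7.13, 6.82 and 6.70 on day 14 and 12.89, 12.84 and 13.49 on day 21, a rise of at least 36.9-fold. *LRRTM2*, a postsynaptic partner of neurexins, rose by 5.94, at least 21.7-fold, the contactin *CNTN1* by 5.67 and the calsyntenin *CLSTN2* by 5.24.

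Of 28 measured glutamate and GABA receptor genes, 12 rose and 1 fell (*GRM3*, a metabotropic receptor, by -2.08), with a median of 0.68. The AMPA receptor subunit *GRIA2* was 7.98, 8.25 and 8.05 on day 14 and 13.76, 13.81 and 12.07 on day 21, where the lowest array still exceeded day 14 (5.12, standard error 0.36, adjusted p = 1.03e-09). Its relative *GRIA4* rose by 3.99, at least 3.16-fold, and the kainate receptor *GRIK3* by 3.58, at least 9.89-fold. *GRIN2B*, a subunit of NMDA receptors, rose from 3.32 ± 0.18 to 8.05 ± 0.25, at least 1.14-fold, and was above background on 2 arrays of day 21. Voltage-gated ion channels rose in 15 of 31 cases and fell in 2, and with a filter on dim clusters 8 rose. *SCN2A*, a sodium channel of axons, rose from 5.24 ± 0.63 to 9.94 ± 0.52, at least 4.20-fold, and *SCN3B*, a sodium channel beta subunit, from 7.76 ± 0.37 to 10.94 ± 0.17. *NTRK2*, the BDNF receptor TrkB, was 11.74, 11.31 and 11.31 on day 14 and 16.29, 16.47 and 16.47 on day 21. It was well above background on both days and rose by 4.95 (standard error 0.30, adjusted p = 1.04e-10), after a change of 7.27 between days 7 and 14.

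Of 35 measured axon guidance genes, 14 rose and 2 fell, with a median of 0.61. *SEMA3C*, a secreted semaphorin that guides growing axons, was 9.15, 9.06 and 9.45 on day 14 and 15.97, 16.21 and 16.13 on day 21. Each array lay above background, and the rise was 118-fold (6.89, standard error 0.23, adjusted p = 6.84e-15). *SEMA3E*, another secreted semaphorin, rose from 4.38 ± 0.35 to 10.15 ± 0.50, at least 4.86-fold. *NRP1*, a coreceptor of class 3 semaphorins, was 7.81, 8.34 and 8.15 on day 14 and 14.07, 13.70 and 13.42 on day 21. All arrays of day 21 lay above those of day 14, and *NRP1* rose by 5.63 (standard error 0.26, adjusted p = 1.4e-12). *PLXNA2*, a plexin that transmits semaphorin signals, rose at least 4.72-fold and *SLIT3*, a ligand of ROBO receptors, at least 2.61-fold, both from under background on all 3 arrays of day 14 (fitted changes 4.10 and 4.39). In control cells over the same days, 16 of the 35 axon guidance genes rose and 3 fell, with a median of 0.77. The difference of the changes was called higher for 7 of the 35 and lower for 5.

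**Figure D3:**
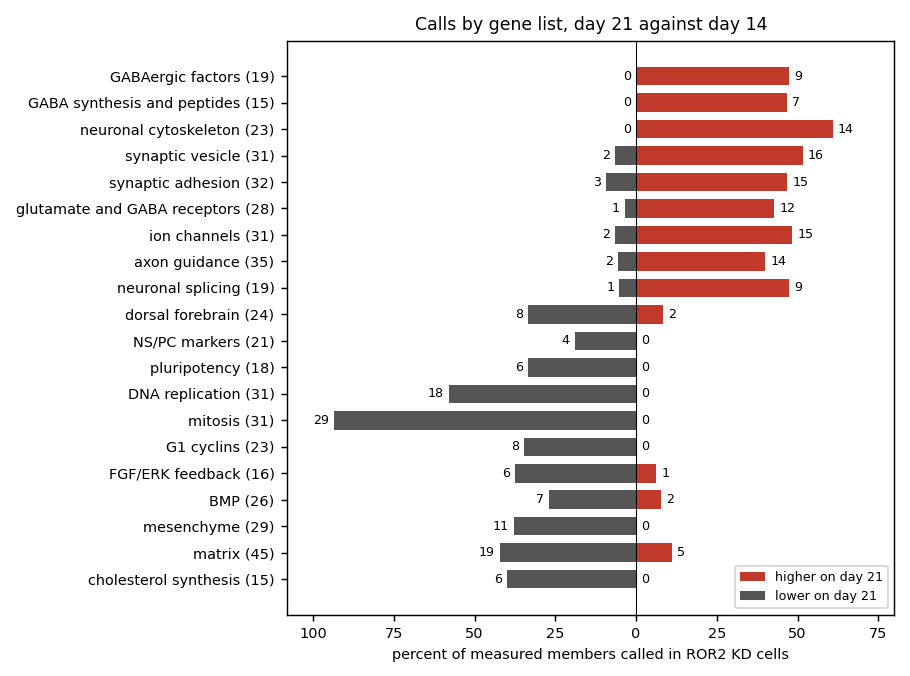
Percent of the measured members of 20 gene lists (number in brackets) that were called higher (red, right) or lower (grey, left) on day 21 than on day 14 in *ROR2* KD cells, with the number called at the end of each bar. Over all genes, 3.21% were higher and 5.75% lower. In the mitosis list 29 of 31 members fell, and in the neuronal cytoskeleton list 14 of 23 rose.

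Most genes of cell division fell. Of 31 mitosis genes, 29 fell and 0 rose, with a median of -1.55, and of 31 DNA replication genes, 18 fell and 0 rose, with a median of -1.12. By the methods' t-test with Benjamini-Hochberg adjustment, 10 mitosis and 4 replication genes fell. *CCNB2*, the mitotic cyclin B2, was 13.82, 13.78 and 13.77 on day 14 and 12.28, 11.74 and 11.90 on day 21. The mitotic checkpoint target *CDC20* gave 12.28, 12.30 and 12.35 on day 14 and 10.82, 10.50 and 10.40 on day 21. Both genes stayed well above background on all 6 arrays and fell, *CCNB2* with a change of -1.82 (adjusted p = 2.93e-07) and *CDC20* with one of -1.74 (adjusted p = 0.000277). *ANLN*, an actin-binding protein of the cleavage furrow, fell the most in the list (-1.97), followed by *HMMR* (-1.94), the kinetochore gene *NDC80* (-1.93) and the spindle protein gene *NUSAP1* (-1.89). The 2 mitosis genes that were not called, *UBE2C* and *CENPA*, also had negative changes. Among replication genes, *CDC45*, part of the replicative helicase, had a change of -1.79, the primase subunit *PRIM1* one of -1.62 and the polymerase subunit *POLE2* one of -1.71. *CCND1*, the G1 cyclin D1, measured 12.20, 12.14 and 12.20 on day 14 and 9.59, 8.93 and 9.50 on day 21. Its fall of 7.17-fold (-2.84, standard error 0.21, adjusted p = 4.22e-09) was larger than that of any mitosis gene. *E2F7*, a repressor of the E2F family, fell by 2.35, and the kinase gene *CDK2* by 1.88. Of 23 genes in the list of G1 cyclins and CDK inhibitors, 8 fell and 0 rose, and the inhibitors *CDKN1A* (under background on all 6 arrays) and *CDKN1C* were among those that fell. Without replicate 2 of day 21, 5 of the list fell, the call of *CDKN1C* was lost without replicate 1 or 3 of day 14 or any array of day 21, and that of *CDKN1A* without replicate 1 or 3 of day 14 or replicate 2 of day 21.

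Promoters of *CCNB2* and *CDC20* are shown because cell cycle genes of this class are known to share 2 short elements, the CHR (TTTGAA) and the CCAAT box (CCAAT), given in capitals in the 120 bases before the RefSeq start (GRCh38.p14, both on the plus strand, chr15:59105026-59105145 and chr1:43358861-43358980). *CCNB2* and *CDC20* were chosen after their values were seen.
*CCNB2* promoter: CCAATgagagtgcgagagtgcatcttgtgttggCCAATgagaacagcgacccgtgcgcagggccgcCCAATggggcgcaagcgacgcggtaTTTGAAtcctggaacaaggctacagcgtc
*CDC20* promoter: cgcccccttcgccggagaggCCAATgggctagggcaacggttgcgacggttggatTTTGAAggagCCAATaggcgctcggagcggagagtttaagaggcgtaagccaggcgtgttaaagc
In *CCNB2* the CCAAT boxes begin 120, 87 and 54 bases and the CHR 29 bases before the start, and in *CDC20* they begin 100 and 55 bases and 65 bases before it. The matches do not overlap. Read on both strands over 250 bases, TTTGAA stood before 16 of 26 mitosis genes with a promoter in the table (61.5%), 1 of 27 DNA replication genes (3.70%) and 13.6% of all 27305 genes. CCAAT stood before 21 of 26 (80.8%), 15 of 27 (55.6%) and 33.0%, and both elements before 14 of 26 (53.8%), 1 of 27 and 4.85%. A match does not show that the element is used.

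**Figure D4:**
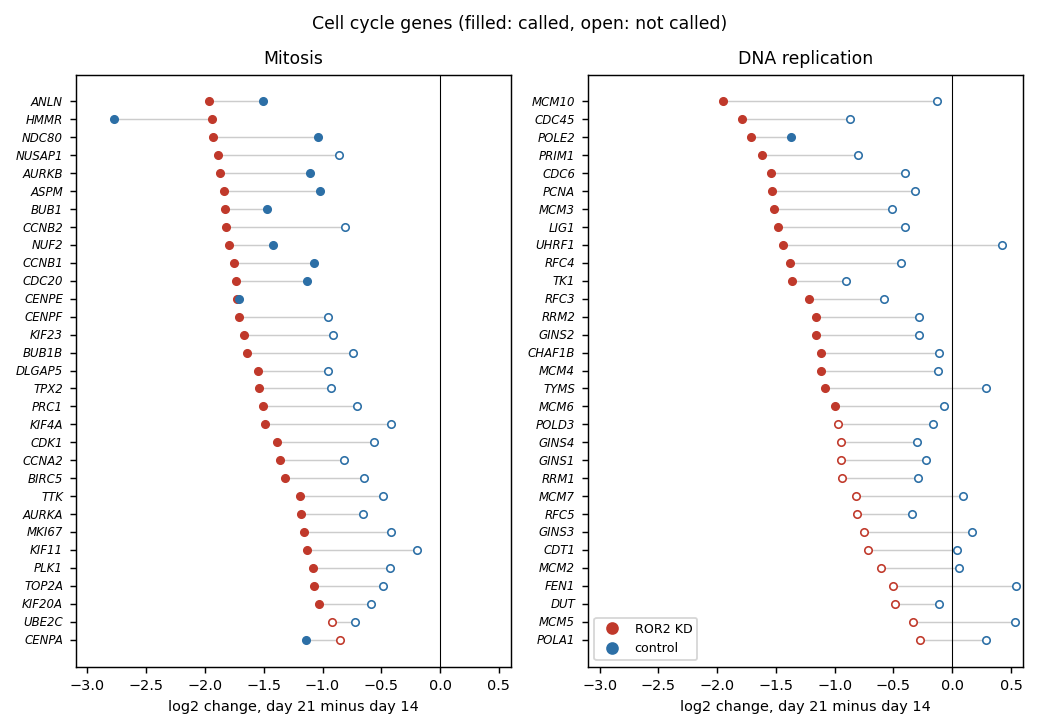
Log2 change from day 14 to day 21 (horizontal axis) of 31 mitosis and 31 DNA replication genes in *ROR2* KD (red) and control cells (blue), filled where the gene was called and open where it was not. All changes in *ROR2* KD cells lie under 0. In control cells 11 mitosis genes and 1 replication gene were called lower.

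Most progenitor markers were not called. The NS/PC factor *PAX6* was 15.07, 15.37 and 15.02 on day 14 and 15.51, 15.61 and 15.65 on day 21, and its change of 0.44 (standard error 0.27, adjusted p = 0.395) did not pass the test. *SOX1* had 11.13 ± 0.36 and 10.87 ± 0.37, *NES*, the intermediate filament nestin, 14.34 ± 0.04 and 14.52 ± 0.24, *SOX2* 15.83 ± 0.04 and 15.35 ± 0.14, and *VIM* 16.67 ± 0.08 and 16.47 ± 0.18, none of them called. Of 21 measured NS/PC markers, all were above background on at least 2 of 3 arrays on both days, 4 fell and 0 rose. Those that fell were the surface protein gene *PROM1* (-2.05), *LIN28B* (-1.95), the Notch effector *HES1* (-1.46) and the fatty acid binding protein gene *FABP7* (-1.12). Radial glia and astrocyte genes split, with 6 higher and 4 lower of 23. The gap junction gene *GJA1* was 12.25, 11.31 and 11.81 on day 14 and 7.41, 7.18 and 7.88 on day 21. The astroglial glutamate transporters *SLC1A2* and *SLC1A3* rose by 2.55 and 1.52, *FAM107A*, expressed in outer radial glia, rose at least 5.85-fold (3.02), and *GFAP* and *AQP4*, the markers of mature astrocytes, lay under background on all 6 arrays.

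Dorsal forebrain and excitatory lineage genes fell in 8 of 24 cases (4 with a filter on dim clusters) and rose in 2, the factors *POU3F2* (2.02) and *BCL11B* (1.08, under background on all 6 arrays, a call lost without replicate 2 of day 14). The median change of the 24 was -0.15, and 13 of them lay under background on all 6 arrays. The summed linear signal of the 24 did not fall, at 132000 to 133000 on the day 14 arrays and 133000 to 141000 on those of day 21. *FEZF2*, which directs the identity of corticospinal neurons, was 13.17, 12.91 and 13.52 on day 14 and 6.61, 6.78 and 7.74 on day 21. It fell by 6.16 (standard error 0.42, adjusted p = 8.38e-10) and remained above background on 1 array. *EMX2*, a homeobox factor of the dorsal telencephalon, was 13.21, 13.32 and 13.09 on day 14 and 9.18, 7.96 and 9.20 on day 21, and fell by 4.43. *EOMES* and *TBR1*, factors of the excitatory lineage, fell, with fitted changes of -2.58 (at least 1.02-fold) and -1.31, with *TBR1* under background on all 6 arrays and its call lost without replicate 1 of day 14. *OTX2*, a homeobox factor of the anterior brain and eye, was 15.65, 15.60 and 15.64 on day 14 and 11.69, 11.40 and 11.32 on day 21. The arrays of each day lay close together, and the fall was 17.9-fold (-4.16, standard error 0.20, adjusted p = 4.07e-12). *SIX3*, a factor of the anterior forebrain and eye field, rose by 1.82. Of 16 measured Hedgehog pathway genes, 3 rose, 1 fell and 12 were not called, with a median of 0.11, and 8 lay under background on all 6 arrays. The receptor and target *PTCH1* rose by 2.04, and the targets *HHIP* and *GLI1* rose by 1.77 and 1.09 under background on all 6 arrays. *GLI3*, which acts mainly as a repressor, fell by 1.02. The call of *GLI1* was lost without replicate 1 or 3 of day 14 or replicate 2 of day 21, and that of *GLI3* without replicate 2 or 3 of day 14 or replicate 3 of day 21. Of 7 hindbrain genes measured (HOX genes and *GBX2*) and 15 retinoic acid genes, 0 were called in limma. All 7 and 12 of the 15 lay under background on all 6 arrays, so that the absence of calls says little.

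Pluripotency genes fell in 6 of 18 cases and rose in 0. *LIN28A*, an RNA-binding protein that blocks the maturation of let-7 microRNAs, was 14.48, 14.29 and 14.26 on day 14 and 10.34, 9.60 and 9.98 on day 21. It fell 20.6-fold (-4.37, standard error 0.21, adjusted p = 3.34e-12) and was still above background on all 3 arrays of day 21. *NR6A1*, an orphan nuclear receptor, fell by 3.42 from 13.74 ± 0.05 to 10.32 ± 0.13, and *DPPA4* by 2.54. *POU5F1*, the core pluripotency factor OCT3/4, was under background on all 6 arrays, at 5.24 ± 0.21 and 5.63 ± 0.30, after a mean of 17.85 on day 0. Of 18 let-7 targets and temporal progenitor factors, 7 fell and 3 rose.

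The microRNA genes that the array resolved by symbol were mostly dim. Of 27 brain microRNAs, 25 lay under background on all 6 arrays, and 3 of these were called. Of the 27, 1 rose and 2 fell, shares near the 3.21% and 5.75% over all genes, so that the list as a whole did not stand out. *MIRLET7C*, the let-7c gene, was 6.51, 7.42 and 6.72 on day 14 and 4.89, 4.52 and 3.59 on day 21, and fell by 2.55 (adjusted p = 4.16e-06) under background throughout. Its neighbour *MIR99A* fell by 1.21 and the transcript that hosts both, *MIR99AHG*, by 1.67 from 12.31 ± 0.11 to 10.64 ± 0.44. *MIR7-3* rose by 1.08, also under background. The calls of *MIR99A* and *MIR7-3* were lost when single arrays were left out, the first without replicate 3 of day 21 and the second without any array of day 14 or without replicate 3 of day 21. Outside this list, *MIR181B1* was 6.56, 7.47 and 6.75 on day 14 and 9.70, 9.43 and 8.57 on day 21, above background on the 3 later arrays alone. It rose at least 2.57-fold (2.30, standard error 0.29, adjusted p = 1.16e-05), and its neighbour *MIR181A1* rose by 1.26 under background, a call lost without replicate 2 of day 21. *MIR92B* fell by 1.25, from 11.19 ± 0.31 to 9.93 ± 0.37. The *MIR181* genes and *MIR92B* were chosen after their values were seen. The array values do not tell a mature microRNA from its precursor. The mature forms are shown with the seed, bases 2 to 8, in capitals, to show which of the genes that moved share one (RefSeq, GRCh38.p14, chr21:16539838-16539859 and chr21:16539101-16539122 on the plus strand, chr1:198859108-198859130 and chr1:198858925-198858947 on the minus strand, and chr1:155195237-155195258 on the plus strand).
let-7c-5p: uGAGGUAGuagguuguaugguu
miR-99a-5p: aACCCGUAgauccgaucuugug
miR-181a-5p: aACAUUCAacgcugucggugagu
miR-181b-5p: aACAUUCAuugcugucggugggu
miR-92b-3p: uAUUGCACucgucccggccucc
The miR-181 pair, whose genes both rose, share the seed ACAUUCA, and the other 3 seeds differ from it and from each other.

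Among small RNAs, the SNORD115 copies stood out. They are C/D box small nucleolar RNAs of the imprinted Prader-Willi region of chromosome 15, expressed from the paternal allele in neurons. Of 22 copies with a cluster of their own, 21 rose and 0 fell, with a median of 3.48. *SNORD115-4* was 11.48, 11.75 and 12.07 on day 14 and 16.45, 15.72 and 16.03 on day 21. It rose 19.7-fold (4.30, standard error 0.26, adjusted p = 9.88e-11). In control cells over the same days, 17 of the 22 copies also rose and 0 fell, with a median of 1.43. The difference of the changes was called higher for 12 of the 22 and lower for 0. The copies are nearly identical in sequence, so that their probes may share target RNA and the copies do not count as separate measurements. They were chosen after their values were seen. Of 2 SNORD116 copies, *SNORD116-1* rose by 1.05, a call lost without replicate 1 or replicate 3 of day 21.

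Of 45 matrix and matrix protease genes, 19 fell and 5 rose (*MMP15*, *NCAN*, *ITGB8*, *TIMP3* and *VCAN*), with a median of -0.66. The summed linear signal of the 45 was 148000 to 160000 on the day 14 arrays and 195000 to 222000 on those of day 21, so that the sum rose. Of 29 mesenchyme, fibroblast and smooth muscle genes, 11 fell and 0 rose. *NID1*, a linker protein of basement membranes, was 11.21, 11.16 and 11.26 on day 14 and 7.00, 5.69 and 6.51 on day 21, a fall of at least 11.1-fold. The laminin *LAMB1* fell at least 1.72-fold, the fibrillin *FBN2* at least 8.43-fold and *COL4A5* at least 4.05-fold (fitted changes -4.02, -4.50 and -3.08). *FN1*, fibronectin, was 11.75, 11.49 and 12.05 on day 14 and 9.69, 9.35 and 9.43 on day 21. *MMP2*, a gelatinase, was 10.18, 10.08 and 10.06 on day 14 and 8.58, 8.33 and 8.63 on day 21. Both were above background on all 6 arrays and fell, with changes of -2.27 (adjusted p = 1.29e-07) and -1.59 (adjusted p = 6.43e-06). The smooth muscle genes *MYL9*, *CNN1* and *TAGLN* fell to under background, at least 7.06-fold, 5.06-fold and 1.65-fold (fitted changes -3.83, -3.64 and -3.62). The summed linear signal of the 29 mesenchyme genes was 110000 to 122000 on the day 14 arrays and 127000 to 157000 on those of day 21, so that the sum did not fall with the members that were called. Of 19 epithelial genes measured, 3 fell (*KRT8*, *KRT18* and *KRT19*) and 1 rose (*EPCAM*), with a median of 0.04. Of the 19, 16 lay under background on all 6 arrays, *KRT18* and *KRT19* among them. *KRT8*, a keratin of simple epithelia, fell by 4.21. The largest fitted falls were those of *ANXA1*, annexin A1, from 11.89, 11.97 and 11.74 to 4.91, 4.87 and 3.76, and *ANKRD1*, a target of YAP, from 9.94, 10.27 and 10.40 to 3.13, 3.91 and 2.84. Both were above background on day 14 and under it on day 21, falls of at least 17.6-fold and 5.54-fold, so that their order among the falls is not settled.

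In the list of BMP ligands, targets and antagonists, 7 of 26 fell and 2 rose, and with a filter on dim clusters 2 fell. Of the 7, *BMP4*, *BMP5* and *BMP7* are ligands, *ID2* is a target, and *GREM1*, *NOG* and *FST* are antagonists. *BMP7*, *NOG* and *FST* lay under background on all 6 arrays. *BMP4* was 7.87, 7.76 and 7.70 on day 14 and 2.76, 2.81 and 3.51 on day 21, near background on day 14, a fall of at least 1.03-fold (-4.75, adjusted p = 1.62e-08). *BMP5* fell at least 4.08-fold, *ID2* at least 6.34-fold and *GREM1* at least 1.36-fold (fitted changes -2.84, -3.56 and -3.34). Of 48 WNT genes, 6 rose and 7 fell, with a median of -0.06. *LGR5*, a receptor for R-spondins, fell at least 2.75-fold (-4.92), the frizzled receptor *FZD6* fell at least 6.05-fold (-3.64), its relative *FZD5* changed by -1.90, and the ligand *WNT7A* rose by 3.19. *ROR2* itself was 4.11, 4.02 and 3.82 on day 14 and 3.52, 3.43 and 3.75 on day 21, under background on all 6 arrays, and was not called (-0.42, standard error 0.26, adjusted p = 0.402). Its ligand gene *WNT5A* was 6.68, 6.44 and 6.66 on day 14 and 5.02, 5.38 and 5.18 on day 21 and fell by 1.40 (adjusted p = 0.000122), also under background. Genes of FGF/ERK feedback fell in 6 of 16 cases and rose in 1 (*ETV4*, under background, a call lost on leaving out any of the 6 arrays). The immediate early gene *EGR1* fell at least 3.77-fold and the feedback inhibitor *SPRY1* at least 2.41-fold (fitted changes -2.97 and -2.59), and the ETS factor *ETV1* changed by -2.33.

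Markers of other lineages were mostly dim, apart from the mesenchyme list, of whose 29 members 15 were above background on at least 2 arrays of day 14 and 10 on day 21. Of the markers of mesoderm and endoderm, 19 of 20 lay under background on all 6 arrays, of endothelium, blood and microglia 13 of 14, of neural crest and plate border 17 of 20, and of the oligodendrocyte lineage 8 of 9. *ZIC1*, a zinc finger factor of the dorsal neural tube, was 8.45, 7.00 and 8.32 on day 14 and 6.15, 5.47 and 6.24 on day 21. It fell at least 1.14-fold (fitted change -1.97, adjusted p = 0.0121), a call lost without replicate 1 or 3 of day 14 or replicate 2 of day 21. Among midbrain genes, *TH*, the dopamine-synthesizing enzyme tyrosine hydroxylase, rose by 1.43 under background, and *FOXA2* and *EN1* were under background and not called, with changes of 0.10 and 0.03. *NNAT*, an imprinted gene of neural development, was at 7.71 ± 0.51 and 7.71 ± 0.23. Of 13 reference genes, 3 fell (*HPRT1* with -1.47, at least 2.10-fold, *B2M* with -1.46 and *GUSB* with -1.28, at least 1.56-fold) and 0 rose, with a median of -0.53. The part of this shift in the falls of other genes was not tested.

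Control cells over the same days were compared to see which changes differed between the cell lines. The 2 comparisons share no array. In control cells, 889 genes rose (2.64%) and 1578 fell (4.69%). Of the genes that rose in *ROR2* KD cells, 522 also rose in control cells, which is 48.4% of the one list and 58.7% of the other, and of those that fell, 953 fell in both (49.3% and 60.4%). The changes correlated at r = 0.68 across genes, which are not independent replicates. The difference of the changes was called higher for 279 genes (0.83%) and lower for 185 (0.55%), or for 0.82% and 0.52% of clusters with a symbol. Of the 1079 genes that rose in *ROR2* KD cells, 158 had a higher and 25 a lower difference, and of the 1932 that fell, 81 had a lower and 36 a higher one. Falls of mitosis genes were not called different between the cell lines for any of 31 genes, and those of replication genes for 3 of 31, among them *MCM10* (-1.82, adjusted p = 0.00412). Neuronal cytoskeleton genes rose in control cells in 16 of 23 cases, with a median of 1.88, and 0 differences were called. Of the 45 matrix genes, 17 fell and 5 rose in control cells, and of the 24 dorsal forebrain genes 10 fell and 1 rose. *LIN28A* fell by 4.34 there (difference -0.03, not called). *CCND1* fell by 2.84 in *ROR2* KD cells and was at -0.27 in control cells, a difference of -2.57 (adjusted p = 2.87e-05).

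The fitted difference was largest for *SST*, at 8.79 (adjusted p = 1.46e-13), with 3.76 and 3.94 in control cells. For *PAX6* the difference was 8.34 (adjusted p = 5.84e-12), with 12.92 and 5.01 in control cells. *SLITRK6* fell by 1.84 in control cells (difference 8.03, adjusted p = 1.82e-11). *SEMA3C*, *SEMA3E*, *CLSTN2* and *GRIN2B* rose in *ROR2* KD cells and were not called in control cells, with differences of 6.97, 5.30, 5.82 and 5.22. *ETV5*, an ETS factor downstream of FGF signals, fell in control cells from 9.71 to 3.43 and was under background on both days in *ROR2* KD cells. Lower differences were found for GABAergic factors. *DLX5* had means of 6.24 and 12.98 in control cells against 12.72 and 14.44 with the knockdown, a difference of -5.03 (adjusted p = 1.32e-09), and *DLX1* had -4.24, *LHX6* -4.37 and *LHX8* -4.26. *DLX6-AS1* had -5.81, *SFTA3*, a neighbour of *NKX2-1*, -4.86, the cadherin *CDH9* -4.32 and the matrix protein gene *SPON1* -4.41. In control cells, 15 of the 19 GABAergic factors rose and 1 fell, with a median of 3.69 against 0.89 in *ROR2* KD cells. Of the 19, 12 had a lower difference and 2 a higher one (*MAF* and *SP8*). Of the 15 genes for GABA synthesis and peptides, 3 had a higher difference and 0 a lower one. *GAD2* rose in both cell lines (5.34 and 3.55), with a difference of 1.79 that was not called (adjusted p = 0.106), and that of *SLC32A1* was 0.01. *WNT5A* fell in *ROR2* KD cells and rose by 1.98 in control cells (difference -3.38, adjusted p = 5.12e-07). *ROR2* fell by 2.09 in control cells, from 6.55 to 4.45, both under background there.

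**Figure D5:**
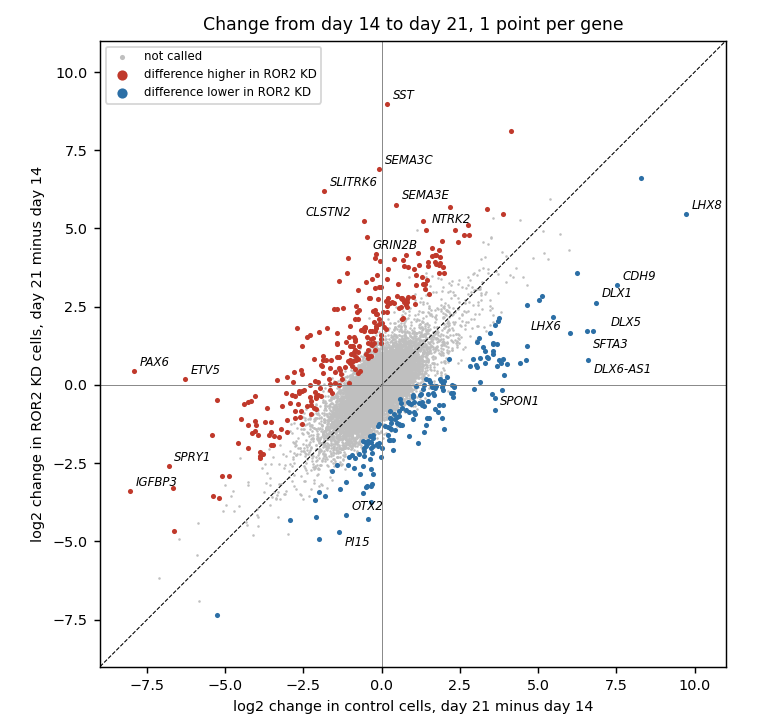
Log2 change from day 14 to day 21 in *ROR2* KD cells (vertical axis) against that in control cells (horizontal axis), 1 point for each of 33276 genes (Y-linked and X inactivation genes are not drawn). Genes whose changes differ are red where the change was higher in *ROR2* KD cells (278) and blue where it was lower (185), and the dashed line marks equal changes. *SST*, *SEMA3C* and *SLITRK6* stand at the top with changes of 0.18, -0.09 and -1.84 in control cells, *PAX6* at the left, and *LHX8*, *DLX1* and *DLX6-AS1* at the right.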

How the data were processed

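RNA of 24 cultures was measured on Clariom D arrays, 3 per cell line and day. The authors deposited log2 values that they made with RMA (background correction, normalization between arrays and 1 value per probe set) in the Transcriptome Analysis Console, and these log2 values were used as deposited. The genome build of the array annotation is not given in the sources used here. The table holds 138745 probe sets. Without 2995 array controls, 135750 transcript clusters were tested, of which 37295 have a gene symbol, 36176 of them a single one. Each gene was represented by 1 single-symbol cluster, the one whose mean over the 24 arrays was highest, so that genes found only in clusters with several symbols, such as *TUBB3*, were not analysed here. A means model over 8 groups was fitted to all 24 arrays in limma 3.58.1 (R 4.3.3), with 16 residual degrees of freedom. Calls needed a Benjamini-Hochberg adjusted p under 0.05 over all 135750 clusters and a fold change above 2. The methods' t-test, other normalizations and filters, a replicate block and leaving out each array were alternatives.

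Named were the 15 largest and 15 smallest called changes whose arrays do not overlap, up to 4 called members with the largest changes of each of 53 lists, the genes the study followed and the 8 largest and smallest differences between the cell lines. Other named genes, among them *TAC1*, *DLX2*, *MAF*, *SP8*, *REST*, *TBR1*, *PLXNA2*, *SLC1A3*, *SOX2*, *VIM*, *GSX2*, *NKX2-1*, *CCNB2* and *CDC20*, were chosen after their values were seen. Members and lists were chosen with earlier results of these data known.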

Additional observations from a re-analysis of the deposited data

Results flagged for a closer look

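The change between days 14 and 21 differed between *ROR2* KD and control cells for 62 of the 170 genes named. The test was limma's test of the difference (adjusted p under 0.05 and more than 2-fold). Named genes were partly chosen by this same test and by the size of their changes, so that 62 does not measure how widely the cell lines differ. Over all genes, 0.83% had a higher and 0.55% a lower difference. Of the 35 measured axon guidance genes, 7 had a higher and 5 a lower one. The log2 difference, *ROR2* KD minus control, is given for each of the 62. Differences were higher for 37 of them. Interneuron, axon guidance and adhesion genes were *SST* (8.79), *CALB2* (4.36), *RELN* (2.18), *SEMA3C* (6.97), *SEMA3E* (5.30), *NRP1* (2.25), *PLXNA2* (2.25), *SLIT3* (2.79), *SLITRK6* (8.03), *CLSTN2* (5.82) and *CNTN1* (3.49). Receptor, release and splicing genes were *GRIN2B* (5.22), *GRIA4* (3.31), *GRIA2* (2.37), *NTRK2* (3.52), *PCLO* (1.95), *CELF4* (3.08) and *KHDRBS3* (2.38). Transcription factors and genes of FGF, Notch and Hedgehog signals were *PAX6* (8.34), *SP8* (3.78), *SIX3* (3.56), *MAF* (2.33), *ETV5* (6.46), *ETV1* (1.57), *SPRY1* (4.21), *HES1* (2.60) and *GLI3* (1.60). Glial and other genes were *FAM107A* (3.77), *SLC1A3* (2.57), *SLC1A2* (1.77), *SIAH3* (3.99), *DSEL* (3.92), *MGAT4C* (1.59), *IGFBP3* (4.64), *HPSE2* (1.97) and *SNORD115-4* (2.46), and *ROR2* itself had 1.68, under background in all 12 arrays compared. Lower differences were found for 25 genes. GABAergic factors and neighbours were *DLX6-AS1* (-5.81), *DLX5* (-5.03), *DLX1* (-4.24), *DLX2* (-3.31), *LHX6* (-4.37), *LHX8* (-4.26), *GSX2* (-3.08), *NKX2-1* (-2.53), *PROX1* (-2.33) and *SFTA3* (-4.86). Division genes were *CCND1* (-2.57), *MCM10* (-1.82) and *E2F7* (-1.49). The others were *OTX2* (-3.02), *BCL11A* (-1.67), *NES* (-1.24), *GRIK3* (-2.67), *CDH9* (-4.32), *WNT5A* (-3.38), *LGR5* (-2.91), *SPON1* (-4.41), *PI15* (-3.34), *GJA1* (-1.37), *BMP7* (-2.02) and *ANXA1* (-2.08).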

How the results depend on the processing

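Counts over clusters with a symbol were 1185 higher and 2113 lower in *ROR2* KD cells and 306 higher and 194 lower for the difference between cell lines. The methods' t-test with Benjamini-Hochberg adjustment called 418 higher and 513 lower (1160 and 2097 unadjusted), and a filter on dim clusters 695 higher. With p-values adjusted over clusters with a symbol alone, 293 differences were lower, and at an adjusted p under 0.01, 120 were. A fold above 1.5 gave 3347 lower clusters, and a fold above 4 gave 346 higher and 299 lower, with differences of 192 and 95. Leaving out single arrays gave 1055 to 1215 higher and 1759 to 2343 lower clusters, and 251 to 312 higher and 132 to 193 lower differences. Array centring gave 923 higher and 2884 lower clusters. Deviations from the group means correlated at -0.02, 0.14 and -0.04 between same-numbered arrays of the 2 days, and at -0.16 to 0.14 between the others. With 3 arrays per group, these values cannot settle whether replicate numbers pair the arrays. With the replicate block 1189 clusters were higher and 2103 lower, and differences 306 and 190. The methods' t-test also lowered the list counts of synaptic vesicle (16 to 9), adhesion (15 to 9), receptor (12 to 5) and channel genes (15 to 6) and of matrix genes that fell (19 to 11).

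Signs turned only for uncalled genes near 0, and the cause was not tested. Median centring gave *NNAT* -0.15, *FOXA2* -0.05, *EN1* -0.12 and *GFAP* -0.05, quantile normalization 0.07, -0.01, -0.11 and -0.06, and array weights -0.03 for *NNAT*, -0.02 for *EN1* and 0.06 for *CCK*. Leaving out single arrays gave *NNAT* -0.28 to 0.22, *EN1* -0.10 to 0.13, *CCK* -0.30 to 0.26, *AQP4* -0.27 to 0.09, *ETV5* -0.07 to 0.33, *GFAP* -0.01 to 0.17 and *VIP* -0.17 to 0.04. Of 170 named genes, 50 lost the call under the methods' t-test and 52 at a fold above 4. With 3 arrays per group and 1 platform, dim genes have only a bound, and 320 higher and 441 lower genes lay under background on all 6 arrays.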

Other observations

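Some metabolic and stress genes were also called between days 14 and 21 in *ROR2* KD cells. Over all genes, 3.21% rose and 5.75% fell, and over genes above background on at least 3 arrays, 6.22% and 13.4%. The reference genes had a median of -0.53. Of 15 cholesterol synthesis genes, all above background on at least 2 arrays of each day, 6 fell and 0 rose, with a median of -0.81, among them the reductase gene *DHCR7* and the decarboxylase gene *MVD*. Of 17 genes of the unfolded protein and amino acid stress response, 5 fell and 0 rose, with a median of -0.49. Of 14 heat shock and immediate early genes, 5 fell and 0 rose, with a median of -0.43. Of 8 metallothionein genes, which encode metal-binding proteins, 3 rose and 0 fell, with a median of 0.74 (*MT1F*, *MT1X* and *MT1H*). *MT1H* lay under background on all 6 arrays, and its call was lost without replicate 2 of day 14, with median centring and with quantile normalization. Of 27 glycolysis and hypoxia genes, 4 fell and 0 rose, with a median of -0.30, and with each array centred on its median 7 fell. The medians of the glycolysis, stress response and heat shock lists were no lower than that of the reference genes. Of 20 proneural and early neuron factors, 14 lay under background on all 6 arrays. Of the 20, 5 rose and 5 fell, with a filter on dim clusters 3 and 0, and by the methods' t-test 2 and 1.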
